A study of Mus musculus with 331 samples.

Results

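The spots described here are those that the authors annotated as medial edge (Med_Edge) in spatial transcriptomics of mouse spinal cord, an assay in which a tissue section lies on an array of barcoded capture spots and polyadenylated RNA is counted per gene and spot. The members were all spots with a 1 in the Med_Edge column of the authors' annotation tables, joined to the count tables by spot position. There were 153 such spots among 77445 spots with a named region (83740 spots in all). They came from 23 of 331 arrays and from 19 of 67 mice. A spot is a small region that can hold several cells of different types, so each mouse contributed the total of its spots in a region, and the mouse was the replicate.

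The surface of the spinal cord is formed by the end feet of astrocytes, the glia limitans, under a layer of meningeal fibroblasts that secrete collagens and small proteoglycans. Below the surface lie myelinated axon tracts whose sheaths are made by oligodendrocytes. Where the spinal nerve roots meet the cord, that myelin gives way to the myelin of Schwann cells, which use peripheral myelin protein 22 (Pmp22) and periaxin (Prx).

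The mice were of 3 genotypes. B6SJLSOD1-WT mice (WT below) carried Med_Edge spots at p30 (1 mouse, 3 spots), p100 (3 mice, 41 spots) and p120 (2 mice, 2 spots). B6SJLSOD1-G93A mice (G93A below), whose mutant SOD1 transgene makes them a model of amyotrophic lateral sclerosis, did so at p30 (3 mice, 26 spots), p100 (1 mouse, 2 spots) and p120 (2 mice, 12 spots). Mice labelled ATG7(fl/fl);ChatCre(+/-);SOD(+/-) (ATG7 below), which carry floxed Atg7 and a Cre driven from Chat, a gene of cholinergic neurons, did so at p100 (3 mice, 41 spots) and p120 (4 mice, 26 spots). No Med_Edge spot was annotated at p70, and ages are given as in the labels. Females gave 94 spots (12 mice) and males 59 spots (7 mice).

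The median Med_Edge spot held 2153 counts (2 to 14239), and all 153 together held 463670. Med_Edge sums of at least 2 spots and 2000 counts were available in 15 mice (148 spots, 454344 counts, 2836 to 150571 per mouse). ATG7 p100 replicate 5 held 33.1% of these counts. The same 15 mice had every compared region, with 3040773 counts in the lateral edge and 6934135 in the medial lateral white matter. Sod1, whose transgene the G93A line carries, lay at 1481 to 2470 CPM (counts per 1000000 counts of the sum) in the Med_Edge sums of the 4 WT mice and at 2843 to 6193 in the 5 G93A mice. This was not tested, the ages of these mice differ, and how many of all genes separate these groups was not counted. The genotype labels do not say whether WT mice carry a transgene, and whether transgene reads count as Sod1 was not checked. The 6 ATG7 mice, which carry a SOD allele too, lay at 2185 to 5008. Atg7 had 0 to 3 counts per mouse, too few to check the floxed allele.

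Med_Edge spots did not lie at the midline. In a frame whose axis runs through the ventral and dorsal medial white matter of each section, 130 of the 153 spots could be placed, in 39 sections of 17 mice. None of them was within 2 spot spacings of the midline. Their median distance from it was 5.39 spot spacings (quartiles 4.96 and 5.93, range 3.0 to 8.05). Spots annotated as lateral edge lay at 5.48 on the same arrays (65 spots) and at 5.23 on all arrays (2354 spots). The ventral and dorsal medial white matter, which set the axis, lay at 0.61 and 0.41 on all arrays. Along the axis, Med_Edge spots were centred at -0.42, between the dorsal edge at 3.29 and the ventral edge at -3.82, and close to the lateral edge at -0.30. They were found on 1 side of 23 sections and on both sides of 16.

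**Figure D1:**
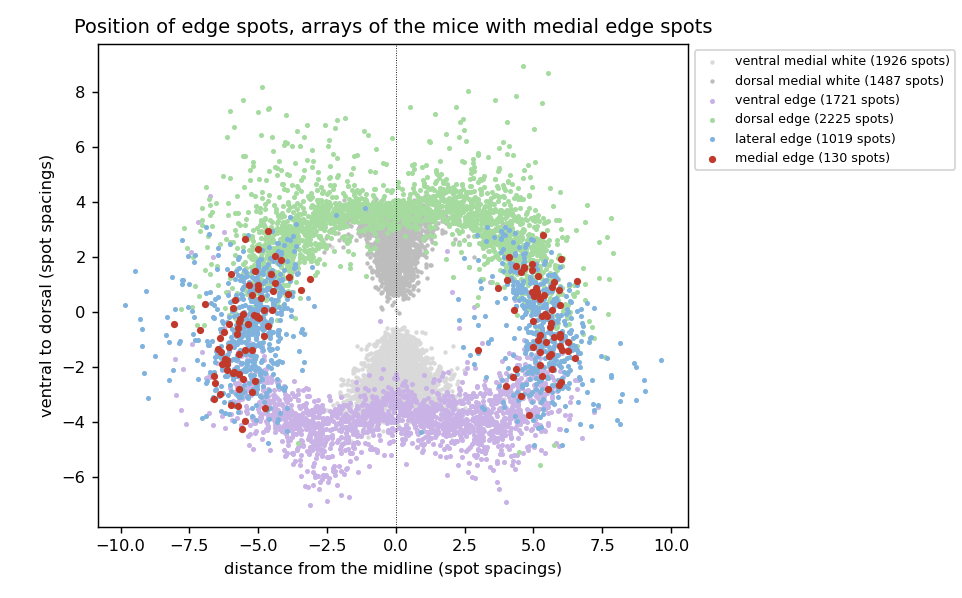
Each point is 1 spot on the arrays of the mice that hold Med_Edge spots, placed by distance from the midline (horizontal axis) and by position from ventral to dorsal (vertical axis), both in spot spacings, and coloured by annotated region. The 130 placed Med_Edge spots (red) form 2 bands on the left and right that coincide with the lateral edge spots (blue), and none lies within 2 spacings of the dotted midline.

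The regions touching these spots gave much the same picture. Of 444 bordering pairs between a Med_Edge spot and a spot of another named region, 235 (52.9%) were with the medial lateral white matter, 40 with the ventral lateral white matter and 2 with the dorsal medial white matter. None was with the ventral medial white matter or the central canal. Pairs with grey matter were 39 with medial grey (8.78%), 41 with the ventral horn (9.23%) and 27 with the dorsal horn (6.08%). For the lateral edge on all arrays, 55.9% of 8579 pairs were with the medial lateral white matter. Its shares with medial grey, the ventral horn and the dorsal horn were 4.30%, 13.8% and 4.66%, so Med_Edge spots touched medial grey more often. Med_Edge spots had a median of 4 neighbouring spots over tissue, as did the ventral, lateral and dorsal edge, against 6 in the medial lateral white matter and 8 in medial grey.

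The name Med_Edge mostly stood on arrays without the name for the lateral edge. Of 308 arrays with no Med_Edge spot, 302 held lateral edge spots. Of the 11 arrays with 5 or more Med_Edge spots, which held 132 of the 153, only 1 held lateral edge spots. Of the 12 arrays with 1 to 3 Med_Edge spots, 9 held them. Other arrays of every one of the 19 mice carried the lateral edge. The positions therefore go against a location at the midline. The medial lateral white matter, also named medial, lay 4.33 spot spacings from the midline and at 0.01 along the axis on all arrays. What medial stands for in these names was not checked, and the spots are called by their annotation column throughout.

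The 2 markers given for these spots did not set them apart from the surrounding white matter or from the lateral edge. Ptgds encodes prostaglandin D synthase, a product of meningeal cells and oligodendrocytes, and Gfap encodes the intermediate filament of astrocytes. Ptgds in the Med_Edge sums had a lowest value of 153, a median of 1140 and a highest of 3088 CPM over 15 mice. Its medians were 1142 in the lateral edge, 1026 in both the ventral and the dorsal edge, and 963 to 1101 in the 4 white matter regions. The values overlapped between all of these regions. Scaled by library totals, the log2 difference of Ptgds was 0.37 against the mean of the white matter regions (95% interval 0.04 to 0.69, adjusted p = 0.637, higher in 9 of 15 mice) and 0.16 against the lateral edge (-0.21 to 0.54, adjusted p = 1). Gfap had a lowest value of 293, a median of 1068 and a highest of 3141 CPM, and a median of 1075 in the lateral edge. Its log2 difference was -0.15 against white matter (-0.59 to 0.29, adjusted p = 0.959) and -0.12 against the lateral edge (-0.62 to 0.38, adjusted p = 1). Both markers were present in these spots at levels found across the edge and white matter.

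**Figure D2:**
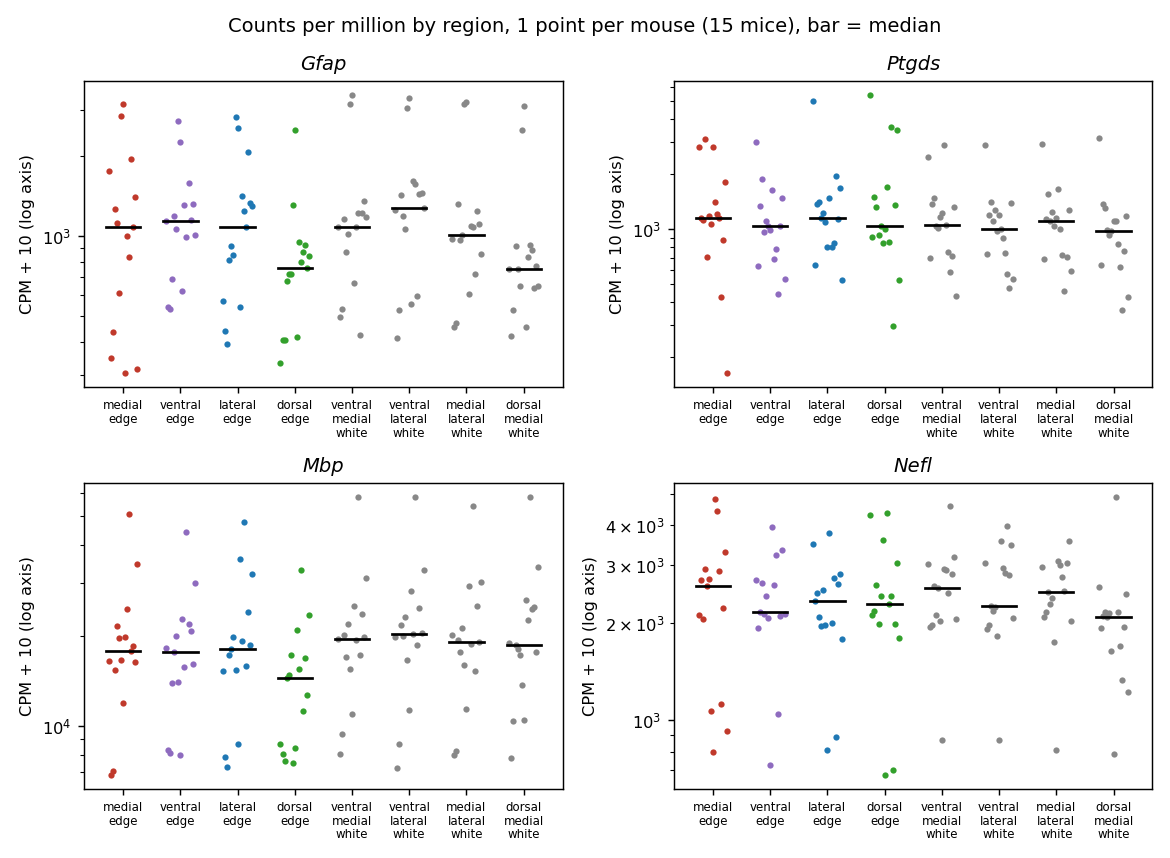
CPM plus 10 on a log axis for Gfap, Ptgds, Mbp (central myelin) and Nefl (axons), 1 point per mouse (15 mice) in the spots annotated as medial edge (red), the other edges and the 4 white matter regions, with a bar at the median. The red points overlap those of every other region for all 4 genes, and for Ptgds the lowest red point, at 153 CPM, lies below all other regions and the highest, at 3088, below the highest of the lateral and dorsal edge, at 5019 and 5409.

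The number of genes called changed with the scaling, so the number called in each comparison is given with each scaling. Of the 150 sums in the fit, the 3 Med_Edge sums under 10000 counts received TMM factors (edgeR's estimate of composition, near 1 for like libraries) of 1.86 to 3.61. The other 12 Med_Edge sums received 0.733 to 1.62 (median 1.20), and the 135 sums of other regions 0.725 to 1.71 (median 0.980). When counts were first summed over mice, the Med_Edge factor was 0.943 and that of the lateral edge 0.979. With TMM the median log2 difference of all 7968 tested genes against white matter was -0.32, and with library totals -0.01. Most genes called lower with TMM are therefore reported as counts, and genes are described as higher or lower only where both scalings called them at an adjusted p under 0.05 in edgeR's quasi-likelihood test with the mouse as a block.

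**Figure D3:**
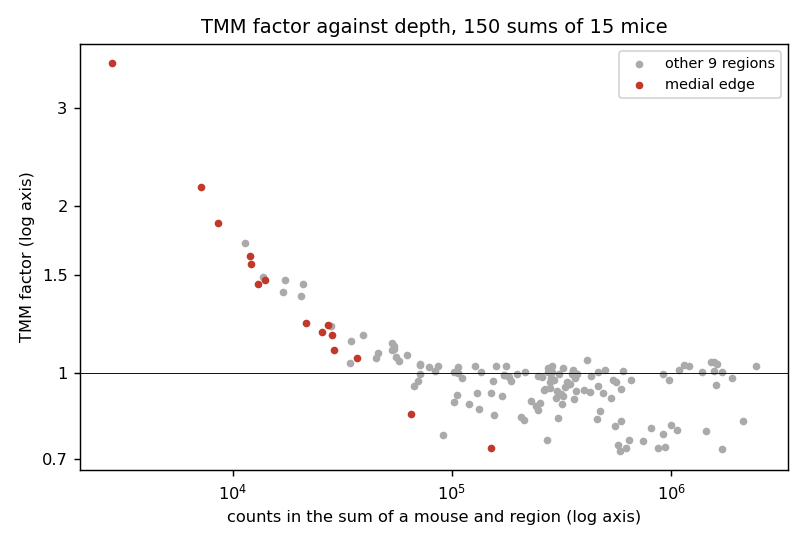
TMM factor (vertical axis) against the counts of each of the 150 sums of a mouse and a region (horizontal log axis). The 3 Med_Edge sums under 10000 counts lie at 1.86 to 3.61, above the 135 sums of other regions, which lie at 0.725 to 1.71.

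Against the mean of the 4 white matter regions of the same mice, 11 genes were higher in Med_Edge spots with both scalings (0.138% of the genes tested) and none was lower. TMM alone called 19 higher (0.238%) and 694 lower (8.71%), and library totals alone 11 and 0, with 543 genes at an unadjusted p under 0.05. Those described here were Pmp22 and Prx, which belong to the myelin of Schwann cells, Dcn and Ogn, small proteoglycans of connective tissue, Lamb1, a laminin chain of basement membranes, Ahnak, a large scaffold protein, Syne2, a nuclear envelope protein, Rcn3, a calcium-binding protein of the secretory pathway, Sostdc1, a secreted BMP and Wnt antagonist, and Fam178b.

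Pmp22, a membrane protein of peripheral myelin (11:63128982-63159547 on the plus strand of GRCm38), was measured at 1753, 337 and 405 CPM in the 3 ATG7 p100 mice and at 835, 553 and 3003 in the 3 ATG7 p120 mice. It lay at 2309, 923 and 13321 CPM in the 3 G93A p30 mice and at 1058 and 1760 in the 2 G93A p120 mice. In WT mice it lay at 3067, 5132 and 1482 CPM at p100 and at 153 in the single p30 mouse. The values of 153 and 1058 CPM rest on few counts. Even 0 counts would allow up to 229 CPM in the WT p30 mouse and up to 1058 in G93A p120 replicate 8. G93A p30 replicate 9 stood far above the other mice, and its lateral edge, at 10480 CPM, was high too. In the medial lateral white matter, the region that Med_Edge spots border most, Pmp22 lay between 300.1 and 1404 CPM with a median of 568, a range that overlaps the lower Med_Edge values. Its median in Med_Edge spots was 1482 CPM. Within mice, the Med_Edge value was above the mean of the white matter in 12 of 15. The log2 difference was 1.6 (SE 0.26, a 3.02-fold higher level, 95% interval 2.12 to 4.31, adjusted p = 3.67e-05). It was 1.52 when only spots of the arrays with Med_Edge spots were used.

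Prx, periaxin, had counts in 10 of 15 Med_Edge sums, with a median of 71.0 and a highest value of 1179 CPM, and was 3.59-fold higher (2.00 to 6.45, adjusted p = 0.0298, higher in 9 of 15 mice). Of the Schwann cell list of 11 genes, 10 were tested, 8 had a positive difference, beside 47.9% of all genes tested, and 3 passed with both scalings, beside the 0.138% of all genes. The median of the 10 was 1.6 with library totals and that of all genes -0.01. This list, like the others below, was chosen with earlier results of these data known, so its tally describes and is no test. Among the members that did not pass, Egr2, the transcription factor of peripheral myelin, stood at 2.31 (SE 0.63, adjusted p = 0.14) and Mal, which oligodendrocytes also make, at -0.20 (SE 0.13).

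Dcn, decorin (10:97479609-97518143, plus strand), had a lowest value of 0, a median of 417 and a highest of 1481 CPM in Med_Edge spots, with medians of 134 to 160 in the white matter regions. It was 2.98-fold higher than in white matter (1.89 to 4.71, adjusted p = 0.00864, higher in 13 of 15 mice). Ogn, osteoglycin, was 3.82-fold higher (2.10 to 6.94, adjusted p = 0.0227, higher in 11 of 15 mice). Of the meningeal fibroblast list of 31 genes, 24 were tested and all 24 had a positive difference, beside 47.9% of all genes, with a median of 0.95. Both scalings called 2 of the 24 higher, Dcn and Ogn, beside 0.138% of all genes. Members below the threshold included Igf2, insulin-like growth factor 2, at 1.28 (SE 0.38, adjusted p = 0.213), Col1a2, a chain of type I collagen, at 0.96 (SE 0.28), and Slc6a13, a GABA transporter of the meninges, at 1.84 (SE 0.59). Of 29 tested collagen and basement membrane genes, 25 had a positive difference (median 0.77), again beside 47.9% of all genes, and 1 of the 29 passed, beside 0.138%. It was Lamb1, at 4.63-fold (2.46 to 8.71, adjusted p = 0.00856). Hspg2, perlecan of the basement membrane, passed with TMM only and stood at 1.90 with library totals (adjusted p = 0.0801). The lists share members, such as Col1a2 in the meningeal and the collagen list, and were chosen with earlier results of these data known. Their tallies are therefore not separate and are no tests.

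Another 5 of the 11 genes rest on few counts. Fam178b had 40 counts, Lamb1 27, Syne2 26, Rcn3 20 and Sostdc1 18 over the 15 Med_Edge sums. Fam178b was 6.92-fold higher (3.58 to 13.4, adjusted p = 1.3e-04) and had counts in 10 of 15 mice. Ahnak, with 199 counts, was 2.44-fold higher (1.6 to 3.73, adjusted p = 0.0432, higher in 12 of 15 mice). When each mouse was left out in turn with library totals, Pmp22 and Fam178b passed in all 15 fits, Lamb1 in 14, Dcn, Syne2 and Ogn in 12, Prx in 10, Sostdc1 in 9, Rcn3 in 8 and Ahnak in 6. The differences stayed positive in every one of these fits. The number of genes called fell from 11 to 3 without G93A p30 replicate 9, to 5 without ATG7 p120 replicate 3 or WT p100 replicate 4 and to 7 without WT p100 replicate 7, and rose to 25 without ATG7 p100 replicate 5, the deepest sum.

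**Figure D4:**
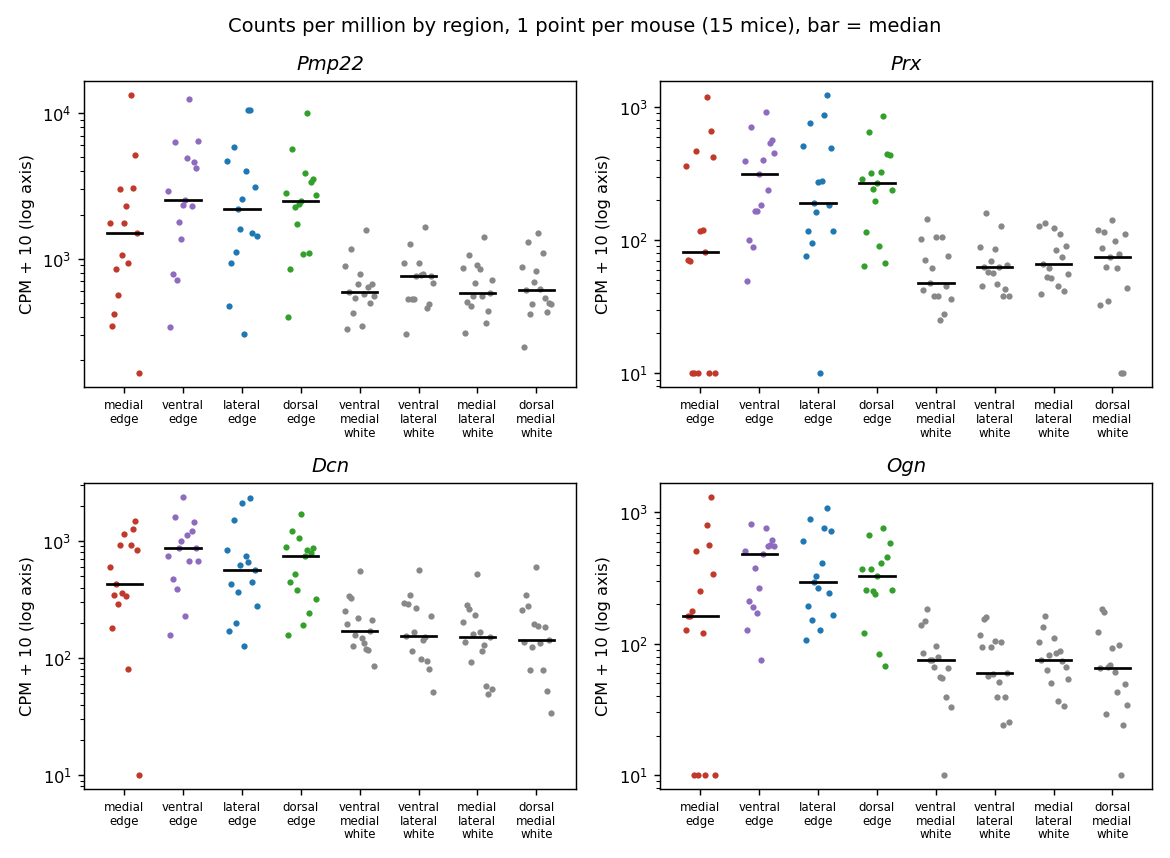
CPM plus 10 on a log axis for Pmp22, Prx, Dcn and Ogn, 1 point per mouse (15 mice), in the spots annotated as medial edge (red), the other edges and the 4 white matter regions, with a bar at the median. For Pmp22 the Med_Edge median of 1482 lies between the lateral edge at 2183 and the white matter regions at 568 to 753.

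No central myelin or axon gene of the lists was called against white matter with both scalings. Mbp, myelin basic protein, had a lowest value of 6826, a median of 17703 and a highest of 51085 CPM in Med_Edge spots, and a median of 18957 in the medial lateral white matter. Its log2 difference against white matter was -0.11 (-0.31 to 0.08) with library totals, and TMM called it lower. Of 20 genes of oligodendrocytes and myelin, 4 had a positive difference (median -0.31), beside 47.9% of all genes, and none was called with library totals, beside 0.138% of all genes. TMM called 16 of the 20 lower, beside 8.71%. Nefl, a neurofilament of axons, had a median of 2581 CPM against 2467 in the medial lateral white matter. None of the 24 neuron genes, 15 microglia genes, 17 genes of white matter and surface astrocytes, 15 genes of grey matter astrocytes or 12 endothelial genes tested was called with library totals, which is near the 0.138% of all genes. TMM called 2, 1, 8, 12 and 0 of them lower, in that order, beside 8.71% of all genes. The grey matter astrocyte list summed to a median of 9217 CPM in Med_Edge spots and 10197 to 11654 in the white matter regions. That of white matter and surface astrocytes summed to 10683 against 9304 to 11268. Of 16 genes of the floor plate and midline 6 were tested, and none was called against white matter or the lateral edge with library totals (medians 0.12 and 0.27).

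Against the medial lateral white matter alone, 12 genes were higher with both scalings (0.151%) and 3 were lower (0.0377%). TMM alone called 19 higher (0.238%) and 672 lower (8.43%), and library totals alone the same 12 and 3. Leaving out each mouse in turn with library totals gave 5 to 23 higher and 1 to 6 lower. The 12 were the same 11 genes and Cd74, the invariant chain of antigen presentation, at 1.95 (SE 0.46, adjusted p = 0.0284). Cd74 had only 28 counts in Med_Edge spots. The 3 lower genes were Gabra2, a GABA-A receptor subunit, at -1.81 (SE 0.37, adjusted p = 0.00384), Ndrg2, made by astrocytes, at -0.45 (SE 0.11, adjusted p = 0.0284), and Car2, carbonic anhydrase 2, made by oligodendrocytes, at -0.58 (SE 0.14, adjusted p = 0.0422). Ndrg2 had a median of 697 CPM in Med_Edge spots against 1023, and Car2 660 against 1142. Gabra2 had 14 counts in all and was at 0 in 12 of 15 Med_Edge sums. With library totals Gabra2 was called in all 15 fits that left out a mouse, Cd74 and Ndrg2 in 10 and Car2 in 7. Against the other white matter regions, Pmp22 and Fam178b were higher with both scalings each time. The shares called higher were 0.0753% against the ventral medial, 0.0502% against the ventral lateral and 0.0502% against the dorsal medial white matter. TMM alone called 15 genes higher in each of these (0.188%), and 615 (7.72%), 713 (8.95%) and 514 (6.45%) lower, in the same order. Library totals alone called 7 (0.0879%), 4 and 4 higher, and 3 to 13, 1 to 19 and 1 to 12 when each mouse was left out in turn. The most were called without ATG7 p100 replicate 5, and the fewest without ATG7 p120 replicate 3, G93A p30 replicate 9 or WT p100 replicate 4. Kif5a, a kinesin of axonal transport, was the only gene lower (0.0126%), and this was against the ventral medial white matter.

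Against the lateral edge, whose position these spots share, no gene was called with library totals. An unadjusted p under 0.05 was found for 361 of 7968 genes (147 higher, 214 lower). TMM called 225 lower (2.82%) and 0 higher, DESeq2's Wald test 396 lower and 1 higher, and TMM on only the arrays with Med_Edge spots 0, where the lateral edge was present in only 5 of the 15 mice. In the other mice the lateral edge came from other arrays than the Med_Edge spots, so region and array cannot be told apart there. The arrays of ATG7 p100 replicates 4 and 5 were of versions L7 and L8, and their Med_Edge spots lay on L8 only. The part of array and version in these differences was not tested. The intervals bound the differences of the border genes. Pmp22 stood at -0.39 (-0.97 to 0.18), Dcn at -0.18 (-0.85 to 0.49) and Ogn at -0.21 (-1.03 to 0.60) on the log2 scale, so the lower bounds of the 3 genes lay between -1.03 and -0.85. The median SE over genes was 0.35. Over 7968 genes the log2 profile of the Med_Edge spots (counts pooled over mice, CPM plus 10) had a Pearson correlation of 0.964 with the lateral edge, 0.955 with the ventral edge, 0.943 with the dorsal edge, 0.957 to 0.962 with the 4 white matter regions, 0.927 with medial grey and 0.913 with the central canal. ATG7 p100 replicate 5 gave 33.1% of the Med_Edge pool and 32.9% of the lateral edge pool, but 14% to 16% of the white matter pools. With each mouse weighted equally, the correlation was 0.933 with the lateral edge, 0.937 with the ventral edge, 0.930 with the dorsal edge, 0.928 to 0.934 with the white matter regions, 0.896 with medial grey and 0.873 with the central canal. Pooled without ATG7 p100 replicate 5, it was 0.952 with the lateral edge, 0.950 with the ventral edge, 0.936 with the dorsal edge and 0.948 to 0.951 with the white matter regions. Medial grey and the central canal then stood at 0.911 and 0.890. The lateral edge was thus highest in both pools but not with equal weights, while medial grey and the central canal were lowest each time. Genes more than 1 log2 unit apart in the pools numbered 42 against the lateral edge and 54 to 75 against the white matter regions, and with equal weights 209 and 205 to 256. Without ATG7 p100 replicate 5 the pools gave 95 and 108 to 126. These are correlations across genes, which are not independent replicates, in pools of unequal depth.

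**Figure D5:**
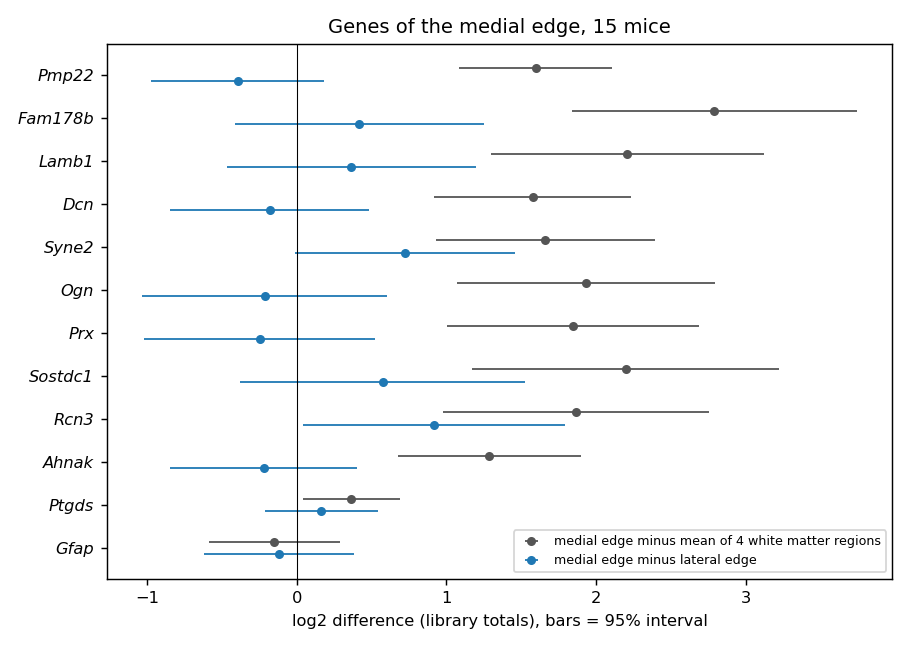
Log2 difference of the Med_Edge sums (library totals, 15 mice) for 10 genes higher than white matter with both scalings and for Ptgds and Gfap, against the mean of the white matter regions and against the lateral edge, with 95% intervals. Pmp22 stands at 1.6 against white matter and at -0.39 against the lateral edge.

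Against the mean of the ventral, lateral and dorsal edge, no gene was called with library totals, and 475 had an unadjusted p under 0.05 (198 higher, 277 lower). TMM called 0 higher and 428 lower (5.37%), led by Apoe, Tuba1a, Sparcl1, Sparc, Ppp3ca and Ywhab. With library totals these stood between -0.25 for Ywhab and -0.04 for Sparcl1, each with an adjusted p of 0.792 or more. DESeq2's Wald test called 525, and TMM factors taken from the region sums called 0. Against the ventral edge TMM called 379 lower (4.76%) and 1 higher (0.0126%), Tagap1, which was singled out after its value was seen. Library totals called 0 genes (480 at an unadjusted p under 0.05), and Apod, an apolipoprotein of oligodendrocytes and meninges, stood at -0.80 (SE 0.18, adjusted p = 0.17). Against the dorsal edge TMM called 608 lower (7.63%) and 0 higher. Ppp3ca, a calcineurin subunit of neurons, was lower with both scalings at -0.51 (SE 0.10, adjusted p = 0.00899), as was Camk2n1, an inhibitor of CaM kinase II, at -0.68 (SE 0.16, adjusted p = 0.0458), the 2 genes (0.0251%) called lower there. With library totals, Ppp3ca was called in 13 of the 15 fits that left out a mouse (not without G93A p120 replicate 9 or WT p100 replicate 4) and Camk2n1 in 6. Ppp3ca had a median of 1069 CPM in Med_Edge spots and 1596 in the dorsal edge. Library totals alone called 4 genes higher (0.0502%), among them Tcf4, a transcription factor, at 0.55 (SE 0.12, adjusted p = 0.0339) and Fth1, the ferritin heavy chain, at 0.48 (SE 0.11, adjusted p = 0.0491). They were called in 9 and 4 of the 15 fits.

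Against medial grey, 195 genes were higher (2.45%) and 512 lower (6.43%) with both scalings. TMM alone called 195 and 1465 (18.4%), and library totals alone 322 (4.04%) and 512. Of 24 tested meningeal fibroblast genes 17 were higher, led by level by Apod at 1.48 (SE 0.19) and Dcn at 2.25 (SE 0.36). Of 10 Schwann cell genes 8 were higher, among them Pmp22 at 2.31 (SE 0.30). Of 20 oligodendrocyte genes 9 were higher, including Mbp at 0.87 (SE 0.12). Of 17 genes of white matter and surface astrocytes 5 were higher, including Gfap at 1.04 (SE 0.25). Neuron genes were lower in 12 of 24 and higher in none, with Snap25, of synaptic vesicle fusion, at -1.01 (SE 0.13) and Meg3, a noncoding RNA of neurons, at -1.01 (SE 0.19).

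Against the central canal, 133 genes were higher (1.67%) and 273 lower (3.43%) with both scalings. TMM alone called 134 (1.68%) and 606 (7.61%), and library totals alone 195 (2.45%) and 273. All 6 tested ependyma genes were lower, including Sox2, a transcription factor of neural progenitors and ependyma, at -1.52 (SE 0.25) and Foxj1, the transcription factor of motile cilia, at -2.51 (SE 0.32). Sox2 had a median of 107 CPM in Med_Edge spots and 319 in the canal. Oligodendrocyte genes were higher in 15 of 20, meningeal genes in 10 of 24 and Schwann cell genes in 6 of 10. Ptgds was 1.03 higher (SE 0.21, adjusted p = 3.6e-04). This was its only call among the 11 comparisons with both scalings.

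Counts of these genes were spread unevenly over the spots. Pmp22 had a count in 108 of the 153 spots, and the 10 spots richest in it, chosen for that, held 50.3% of its 880 counts and 4.86% of all counts. These 10 came from 4 mice, 5 of them from G93A p30 replicate 9, 3 from WT p100 replicate 4 and 1 each from G93A p30 replicate 4 and G93A p120 replicate 9. Of the 10 spots richest in Pmp22, 6 were also among the 10 richest in Prx, 4 among those of Ogn, 3 each among those of Dcn and of Mbp, and 1 among those of Ptgds. None was among those of Gfap or Nefl. Among spots with at least 1000 counts on the arrays that hold Med_Edge spots, the median level of Pmp22 was 591 CPM in 123 Med_Edge spots (17 mice), 557 in 513 spots of the medial lateral white matter, 1282 in 334 of the ventral edge and 1788 in 540 of the dorsal edge (18 mice each). It was 1773 CPM in 117 lateral edge spots, which come from only 7 mice, G93A p30 replicate 9 among them, so these are not the same mice. The upper quartile was 2151 CPM in Med_Edge spots and 997 in that white matter, so the middle spots lay near each other and the upper ones apart. Counted in the same way as for Pmp22, the 10 richest spots held 53.8% of the counts of Prx, 44.5% of Ogn, 39.8% of Dcn, 33.8% of Ptgds and 32.2% of Gfap, with Ahnak between Ogn and Dcn. Spots with at most 3 neighbours over tissue (30 spots), with 4 (55 spots) and with 5 or more (68 spots) had pooled Mbp levels of 10950, 14048 and 17779 CPM, in that order. Ahnak went the other way, at 679, 458 and 302 CPM, as did Ogn, at 380, 279 and 230, and Ptgds, at 1828, 1287 and 1074. Pmp22, at 1808, 1367 and 2364 CPM, followed neither order. Ventral of the frame's centre (77 spots) Pmp22 lay at 1909 CPM and dorsal of it (53 spots) at 2012. In the same order, Gfap lay at 782 and 1141, Ptgds at 1082 and 1507 and Dcn at 454 and 637. Ogn, Ahnak and Mbp were higher dorsally too, while Prx (203 and 190) and Nefl (2427 and 2173) were lower. These splits pool spots of unequal depth over mice and were not tested.

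Genotypes were not tested. G93A against WT and ATG7 against G93A within an age had fewer than 3 mice on at least 1 side at every age. At p100 the only G93A Med_Edge sum, of 2 spots and 699 counts, fell under the minimum, beside 3 sums of ATG7 and 3 of WT. ATG7 against WT at p100 had 3 mice on each side, but it was not among the genotype comparisons chosen and was not run. The summed level of 24 genes that the G93A line raises late, a list drawn from earlier results of these data, was 36671 and 52609 CPM in the 2 G93A p120 mice. It lay between 4556 and 17262 CPM in the other 13 mice, including all 3 G93A p30 mice. The first of these sums, replicate 8, holds only 2836 counts from 2 spots. Because the list was chosen in these same data for its late rise in G93A mice, the high sums were set by that choice and are no test. The highest sum of the list was 49130 to 59895 CPM in the other regions of the fit, so the level was not particular to Med_Edge spots. Gfap was highest in the G93A p120 mice, at 2821 (8 counts) and 3141 CPM (116 counts), and at 2814 and 2540 in their lateral edge. Tyrobp, the signalling adaptor of microglia, lay at 705 CPM (2 counts) and 785 CPM (29 counts) there and at 0 to 247 CPM (0 to 5 counts) in the other 13. The 4 sums with 0 counts of it allow up to 418 CPM. In G93A p120 replicate 8, 0 counts would allow up to 1058 CPM, above both Tyrobp values. Tyrobp was singled out after its value was seen, and how many of all genes separate these 2 mice was not counted. The Schwann cell list summed to 1150 to 8513 CPM in the 6 ATG7 mice, 2821 to 34187 in the 5 G93A mice and 3819 to 14121 in the 4 WT mice. With library totals and the mice of 1 genotype only, Pmp22 stood above white matter by 2.38 (SE 0.53, adjusted p = 0.0305) in the 4 WT mice, by 1.86 (SE 0.41, adjusted p = 0.0981) in the 5 G93A mice and by 0.75 (SE 0.42, adjusted p = 0.846) in the 6 ATG7 mice. In the same order, the differences from white matter were 4.40, 2.09 and 0.90 for Ogn, 3.31, 1.51 and 0.93 for Dcn, and 4.78, 2.69 and 2.06 for Fam178b. They were 3.72, 2.58 and 1.11 for Lamb1, 3.09, 2.08 and 1.11 for Prx, and 2.79, 0.87 and 0.98 for Ahnak. Syne2, Sostdc1 and Rcn3 were not tested in WT mice and stood higher in ATG7 than in G93A mice. In G93A and ATG7 mice they stood at 1.33 and 1.79 (Syne2), 1.72 and 1.97 (Sostdc1) and 1.22 and 1.51 (Rcn3). These fits called 22, 0 and 0 genes, each after its own filter of genes, so the counts cannot be compared. The difference between genotypes was not tested, and age, sex and the number of Med_Edge spots differ among these mice as well.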

How the data were processed

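Polyadenylated RNA was counted per gene and spot on arrays carrying mouse spinal cord sections. The deposited tables hold whole-number counts and were used as raw counts. The build is GRCm38 per the submitters' processing notes. ST Pipeline v0.8.5 is named in the labels only for p70 arrays that carry 2 genotypes, and the aligner is otherwise not given in the sources used here. Counts of ambiguous features (0.564%) stayed out. Of 22923 symbols in any table, 17261 were listed in all 3 sets of gene names and were used. Gene positions come from GENCODE vM21 (GRCm38), matched by symbol.

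Counts were summed per mouse and region for 10 regions, with a minimum of 2 spots and 2000 counts. All 150 sums entered a single fit of 7968 genes (edgeR 4.0.16, R 4.3.3, TMM, filterByExpr, robust quasi-likelihood, mouse as a block, since all regions of a mouse come from the same animal). A gene was called at a Benjamini-Hochberg adjusted p under 0.05 in each of 11 comparisons. Library totals in place of TMM were tried as well. The report leads with calls shared by both, a choice made after the TMM factors were seen. DESeq2 1.42.0 was also run. Scripts were tested on simulated data. CPM are counts per 1000000 counts of the sum. SEs of edgeR differences were worked out from the log2 difference and the F statistic of the quasi-likelihood test. Intervals cover 95%, are symmetric on the log2 scale and use the spread between sums. How well they hold for genes with few counts was not checked. The level that 0 counts allow (3 counts) covers counting error only.

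For positions, spots within 1.3 spacings were joined into sections, and each section's axis ran from the mean of the ventral to the mean of the dorsal medial white matter. Neighbours lie within 1.6 spacings. Named genes are Ptgds, Gfap, the 12 higher and 6 lower genes of smallest p against other edges and against white matter, members of 22 gene lists, and the other genes, such as Cd74, Gabra2, Ndrg2, Car2, Kif5a, Camk2n1, Meg3 and Tyrobp, which were singled out after their values were seen. The members and lists were chosen with earlier results of these data known. Some genes counted here are not reported by name.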

Additional observations from a re-analysis of the deposited data

How the results depend on the processing

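The number of genes called against the other edges (428 with TMM) depended on the scaling: it was 0 with library totals and 0 with TMM factors from region sums, 455 with DESeq2 size factors and 501 with TMM pairing singletons. It was 1176 with no filter beyond 1 count, 0 on only the arrays that hold Med_Edge spots (3582 genes tested), 894 with a minimum of 1 spot and 1 count, 59 with a minimum of 5 spots and 5000 counts, 0 for L6 arrays, 0 for WT, 0 for G93A and 55 for ATG7 mice alone, and 224 with the most frequent set of gene names. With library totals it was 0 under each of these settings that was run. Against white matter (713 with TMM) it was 11 with library totals, 12 with factors from region sums, 1766 with no filter, 20 on the same arrays, 1266 and 218 with the lower and higher minimum, 0 for L6 arrays, 51 for WT, 12 for G93A and 99 for ATG7 mice alone, and 335 with the most frequent name set. With library totals the corresponding counts were 8 with no filter, 11 with at least 10 Med_Edge counts, 14 on the same arrays, 18 with edges and white matter only in the fit, 12 and 5 with the lower and higher minimum, 0 for L6 and 7 for L7 or L8 arrays, 22, 0 and 0 for WT, G93A and ATG7 mice, and 3 with the most frequent name set. Counts against single regions with library totals and on the same arrays were 0 and 0 (ventral edge), 0 and 0 (lateral edge, 397 with DESeq2's Wald test), 6 and 64 (dorsal edge), 8 and 14 (ventral medial white), 4 and 26 (ventral lateral white), 15 and 26 (medial lateral white), 4 and 5 (dorsal medial white), 834 and 614 (medial grey), and 468 and 45 (central canal). On the same arrays the lateral edge was present in 5 and the canal in 9 of the 15 mice. The cause of these changes was not tested, beyond the smaller numbers of mice and genes in some fits. Scalings from region sums and library totals combined with another setting were chosen after seeing the data.

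Leaving out each mouse in turn gave, with TMM, 247 to 507 genes against the other edges, 503 to 925 against white matter, 239 to 544, 86 to 284 and 312 to 603 against the ventral, lateral and dorsal edge, 416 to 790, 490 to 919, 468 to 865 and 289 to 720 against the ventral medial, ventral lateral, medial lateral and dorsal medial white matter, 1399 to 1734 against medial grey and 532 to 868 against the central canal. The low counts against the edges came without ATG7 p100 replicate 2 (247, 252, 98 and 312 against the other edges and the ventral, lateral and dorsal edge), ATG7 p120 replicate 1 (277, 239, 86 and 394) and G93A p120 replicate 8 (285, 112 and 344 for all but the ventral edge), G93A p30 replicate 7 (241 ventral, 111 lateral) and WT p30 replicate 6 (116 lateral). Against the dorsal medial white matter they came without the first 3 of these (329, 289 and 352), and ATG7 p120 replicate 1 also gave the 416. With library totals the counts were 0 against the other edges in every such fit and 3 to 25 against white matter (8 to 13 beside the 5 mice named in the report, 9 without ATG7 p120 replicate 1, G93A p120 replicate 8 or WT p100 replicate 1, and 13 without G93A p30 replicate 7 or WT p30 replicate 6).

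Without the replicate block, with the mouse not in the model, 271 genes were called against the other edges and 620 against white matter with TMM, and 0 and 10 with library totals. Sostdc1, Rcn3 and Hspg2 were then not called against white matter, and Apoe and Sparc not against the other edges. Some genes called lower with TMM turned positive on the log2 scale: Apoe (0.058 on L6 arrays, 0.29 there with library totals), Tuba1a (0.12 there with library totals), Sparcl1 (0.041 with factors from region sums, 0.018 in WT mice with library totals), Sparc (0.16 on L6 arrays and 0.065 in G93A mice, both with library totals) and, against white matter, Cst3 (0.054 on L6 arrays with library totals). The other settings of the genotype test were not run because that test was not run. With library totals and a mouse left out, 0 to 10 genes were called against the dorsal edge, 10 and 0 without G93A p30 replicate 4 and G93A p120 replicate 9. Camk2n1 was then not called without ATG7 p100 replicate 5, ATG7 p120 replicates 1, 2 or 3, G93A p120 replicate 9, G93A p30 replicates 7 or 9, or WT p100 replicates 4 or 7. Tcf4 was not called without ATG7 p100 replicate 2, ATG7 p120 replicates 2 or 3, G93A p120 replicate 9, WT p100 replicate 7 or WT p30 replicate 6, and Fth1 was called only without ATG7 p100 replicate 4, ATG7 p120 replicate 1, G93A p30 replicate 4 or WT p100 replicate 1. Against the medial lateral white matter Cd74 was not called without ATG7 p120 replicate 3, G93A p120 replicate 9, G93A p30 replicate 9 or WT p100 replicates 1 or 4, Ndrg2 without ATG7 p100 replicate 4, ATG7 p120 replicate 3, G93A p30 replicate 9 or WT p100 replicates 4 or 7, and Car2 without any ATG7 p120 mouse, G93A p120 replicate 8, G93A p30 replicates 7 or 9, WT p100 replicate 4 or WT p30 replicate 6. Without ATG7 p100 replicate 4 the genes higher rose to 11 and 9 against the ventral lateral and dorsal medial white matter, and without G93A p30 replicate 7 to 10 and 6. Pmp22 was called against single white matter regions in 12 to 14 and Fam178b in 13 to 15 of the 15 fits. In the comparison with the lateral edge the median SE over genes was 0.35, and what set it was not tested.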
